A study of Homo sapiens with 12 samples.

Results

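The E2F and DP transcription factors are covered here as 10 genes chosen by name: E2F1 to E2F8, TFDP1 and TFDP2, out of 23710 gene symbols in the count files. All 10 were found, and all 10 passed the filter on low counts with each siRNA. RNA-seq was performed on RCC4, an established clear cell renal carcinoma line, 72 hours after transfection with 40 pmol of an siRNA against MESH1 or of a non-targeting siRNA (siNT), to describe the transcriptional response to MESH1 silencing. Experiment 1 held 3 libraries of siMESH1-CDS and 3 of siNT, and experiment 2 held 3 libraries of siMESH1-3UTR, labelled siMESH1-7002 in the sample titles, and 3 of its own siNT. The cells were otherwise untreated and no other gene was targeted. All libraries came from 1 cell line, and the labels call the replicates biological without naming separate cultures, so p-values measure the spread between these libraries.

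E2F proteins bind DNA at the promoters of genes needed for entry into S phase. E2F1 to E2F6 bind as pairs with a DP partner, encoded by TFDP1 or TFDP2, whereas E2F7 and E2F8 bind without one. E2F1, E2F2 and E2F3 are classed as activators and are held in check by the retinoblastoma protein. E2F4 and E2F5 work mostly as repressors with the related pocket proteins p107 and p130, E2F6 represses with Polycomb proteins, and the atypical E2F7 and E2F8 repress in late S phase and G2. Several E2F genes are themselves E2F targets, so that the family forms feedback loops.

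The siRNA target sequences are shown because the members were also searched for matches to them, with the bases that pair with the guide seed (positions 2 to 8 of the guide) in capitals. Both lie in HDDC3, the gene that encodes MESH1, the first in the coding sequence and the second in the 3'UTR. The targets are those of the series' design text. The labels give 2 different catalogue numbers for the 3'UTR siRNA, so its target and seed hold for the sequence in that text only.
siMESH1-CDS target: gggaaucacugACAUUGUg
siMESH1-3UTR target: ctgaaggtctcctGCTAACTa
A 7-base seed match to siMESH1-CDS was present in the 3'UTR of 1 of the 10 members, E2F2, at position 1352, and 14.9% of the 19469 genes with an annotated 3'UTR hold such a match. No member held a match to the seed of the siMESH1-3UTR sequence in the design text, which 5.76% of genes do.
E2F2 3'UTR site: ttgatcatcccACATTGTcccttcagctc

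Promoter stretches are shown because several members carry E2F-type motif words close to their start sites. Windows from 250 bases before to 50 bases after the start site (RefSeq, GRCh38.p14) were searched on both strands for 4 words of the E2F type. The first word was TTTCCCG, the next TTTCGCG, the third TTTGCCG, and the last TTTGGCG. Windows were given for 8 of the 10 members, 11 windows in all, and E2F5 and E2F8 had none. A match was found in 6 of the 11 windows, belonging to E2F1, E2F2, E2F3, E2F6, TFDP1 and TFDP2, and in 8.67% of all 35116 windows. The words were chosen after the member promoters had been read, so the shares are a description. In the stretches, capitals mark the words on either strand.
E2F1 promoter, chr20:33686396-33686425, minus strand: ctcTTTCGCGGCAAAaaggaTTTGGCGcgt
E2F2 promoter, chr1:23531265-23531294, minus strand: cgaaTTTCGCGgcacgacgTTTGGCGctaa
E2F3 promoter, chr6:20401822-20401851, plus strand: gccggCGGGAAAtccgagTTTCGCGggagg
TFDP1 promoter, chr13:113584623-113584652, plus strand: ggcgccgaaggCGCGAAAaggcgcgcaggc
TFDP2 promoter, chr3:142149507-142149536, minus strand: tgctgctccgcCGCCAAAgctcgcgcgggg
E2F1 held 3 matches between positions -40 and -11 from its start site, where TTTCGCG on one strand and TTTGCCG on the other lie side by side and overlap. Only 10 of the 35116 windows (0.0285%) held 3 or more, and 0.681% held 2 or more. E2F2 and E2F3 each held 2 matches, with first bases at -57 and -42 for E2F2 and at -52 and -39 for E2F3. The E2F6 window held 2 copies of TTTCCCG, the TFDP1 match began at -119 and the TFDP2 match at 19, after the start site. The windows of E2F4 and E2F7 held no such word, nor did the other E2F3 window or the other TFDP2 windows. A match is a string of letters and does not show binding.

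The libraries of experiment 1 held 34063155 to 49134129 reads in genes, and those of experiment 2 held 24787804 to 31651125. Levels are given as CPM, the reads of a gene relative to the TMM-scaled library total, and 1 CPM rested on 24.8 to 49.1 reads. HDDC3 was left at 2.11% of its siNT level with siMESH1-CDS, on 5, 0 and 11 reads, and at 10.4% with siMESH1-3UTR. Its log2 changes were -5.565 and -3.254, and with the GC offset described below they were -3.717 and -3.121. No library went against its label. All 6 renal carcinoma markers were detected in every group. Of these, 5 were lower with siMESH1-CDS (list median -2.26 on the log2 scale), among them PAX8 at -1.53 and KRT18 at -4.81, while VIM, the most abundant, was at -0.01 and not called. The GC offset left 2 lower and 2 higher, with a median of -0.07. With siMESH1-3UTR 3 were lower (median -0.13). The summed level of the 6 went from 3750 to 3980 CPM with siNT to 3540 to 3580 CPM with siMESH1-CDS, and from 6680 to 7070 CPM to 6110 to 6250 CPM with siMESH1-3UTR, and its part in the results was not tested. Of 5 leukocyte and endothelial markers, CD3E and PECAM1 had no reads in any library. The summed level of these 5 markers, nearly all of it CD68, was 45.1 to 62.4 CPM with siNT and 1.09 to 7.39 CPM with siMESH1-CDS, and 104 to 106 CPM with siNT and 136 to 146 CPM with siMESH1-3UTR, and its part in the results was not tested. Replicates were noisier in experiment 1, with a biological coefficient of variation of 0.299 against 0.049. The genes tested with siMESH1-CDS that had a matched transcript (96.4%) were placed in 10 classes of like size by transcript GC content. The class medians of the log2 change ran from 1.10 at the lowest GC content to -3.56 at the highest. A fit with a GC offset is therefore given beside many, but not all, of the siMESH1-CDS values. That offset moved the median log2 change of all genes tested with siMESH1-CDS from -0.0469 to 0.193.

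E2F1, E2F2, E2F7, E2F8 and TFDP1 were lower and E2F3 was higher with each siRNA. With siMESH1-CDS, 6 members were called lower and 3 higher (edgeR's quasi-likelihood test, Benjamini-Hochberg adjusted p under 0.05). The background was large, since 37.2% of the 13395 genes tested were called lower and 36.9% higher. With siMESH1-3UTR, 6 members were called lower and 1 higher, against 26.7% and 26.6% of the 13568 genes tested. The median log2 change over the 10 members was -1.21 with siMESH1-CDS and -0.303 with siMESH1-3UTR, and over all genes tested it was -0.0469 and 0.00531. The groups did not overlap for 9 of the 10 members with siMESH1-CDS and for 7 with siMESH1-3UTR, as for 82.7% and 59.5% of all genes tested.

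**Figure D1:**
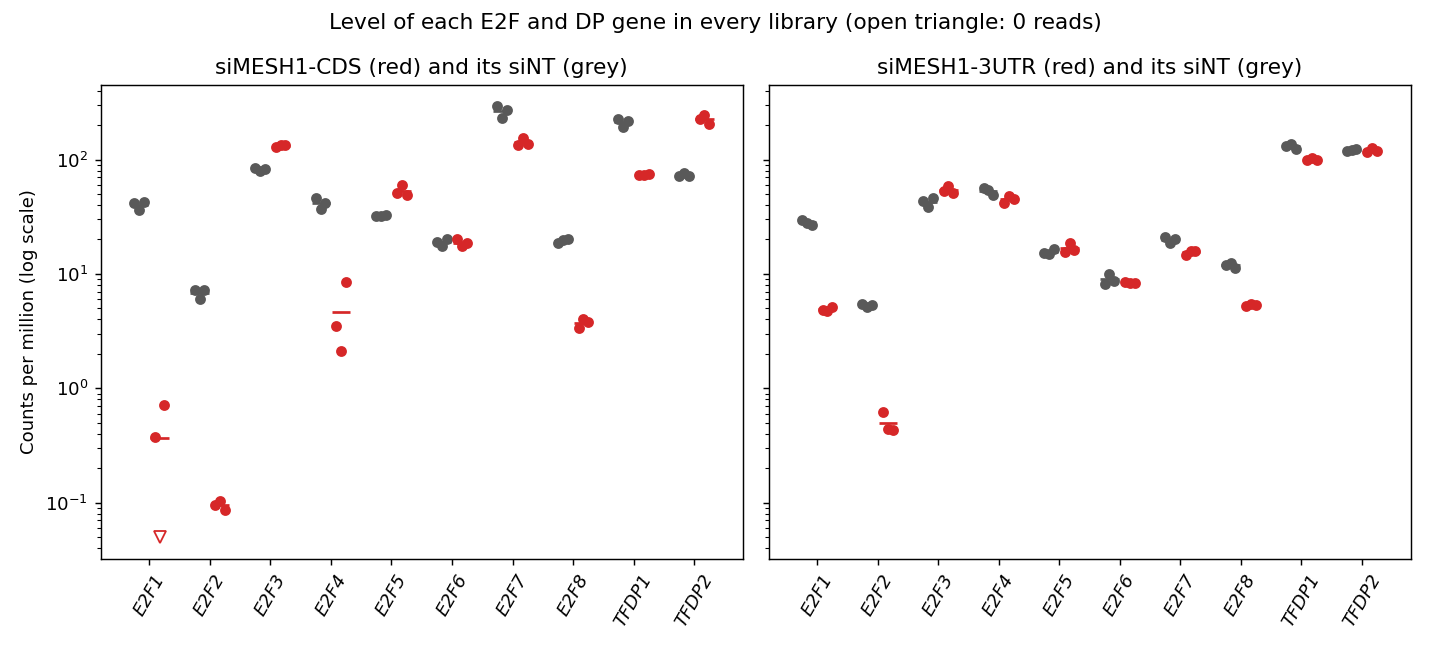
Level of each E2F and DP gene in every library, as CPM on a log axis, with siMESH1-CDS and its siNT on the left and siMESH1-3UTR and its siNT on the right. Points are libraries, bars are means of 3 and the open triangle marks the library with 0 reads of E2F1. E2F1, E2F2, E2F8 and TFDP1 of the knockdown libraries lie below their siNT libraries in each panel.

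Among the activators, E2F1 and E2F2 fell and E2F3 rose with each siRNA. These are bulk libraries, in which fewer cells that express a gene and less of its RNA per cell cannot be told apart. E2F1, the founding member and itself an E2F target, was at 41.4, 36.1 and 42.7 CPM in the siNT libraries of experiment 1 and at 0.379, 0 and 0.719 CPM in the siMESH1-CDS libraries, which is 12, 0 and 25 reads. Every siMESH1-CDS library lay far below every siNT library, and the second held no E2F1 read. The log2 change was -6.78 (SE 1.01, edgeR's quasi-likelihood test with Benjamini-Hochberg adjustment, adjusted p = 0.00176), and -3.57 with the GC offset. Without siMESH1-CDS replicate 3 it was -7.83, and without replicate 2 it was -6.15. In experiment 2, E2F1 was at 29.9, 27.7 and 26.9 CPM with siNT and at 4.82, 4.73 and 5.15 CPM with siMESH1-3UTR. The groups were again far apart, with 17.4% of the siNT level left (log2 change -2.52, SE 0.083, edgeR's quasi-likelihood test with Benjamini-Hochberg adjustment, adjusted p = 4.03e-13).

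E2F2, an activator that was the scarcest member per transcript length, was at 7.18, 6.00 and 7.17 CPM with siNT in experiment 1 and at 0.0949, 0.104 and 0.0863 CPM with siMESH1-CDS, which is 3, 4 and 3 reads. The knockdown libraries thus lay near the detection limit, and the log2 change of -6.11 (SE 0.246, edgeR's quasi-likelihood test with Benjamini-Hochberg adjustment, adjusted p = 0.000178) rests on those few reads. It was -3.81 with the GC offset. In experiment 2, E2F2 was at 5.45, 5.18 and 5.36 CPM with siNT and at 0.624, 0.439 and 0.429 CPM with siMESH1-3UTR. Every knockdown library was lower, with 9.33% left (log2 change -3.42, SE 0.175, edgeR's quasi-likelihood test with Benjamini-Hochberg adjustment, adjusted p = 6.68e-11). E2F2 was the member that fell most with siMESH1-3UTR. Whether the seed match shown above plays a part in the change with siMESH1-CDS was not tested.

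E2F3, the third activator, moved the other way. It was at 83.8, 79.4 and 82.4 CPM with siNT and at 128, 134 and 133 CPM with siMESH1-CDS. The groups did not overlap, and the log2 change was 0.69 (SE 0.0767, edgeR's quasi-likelihood test with Benjamini-Hochberg adjustment, adjusted p = 0.000704). With the GC offset it was 0.45, where the median of all genes tested was 0.193. Among the 1293 genes in its GC class, whose median was 0.371, 65% had a lower log2 change than E2F3. In experiment 2, E2F3 was at 43.2, 38.5 and 45.8 CPM with siNT and at 53.2, 58.5 and 50.7 CPM with siMESH1-3UTR. Each siMESH1-3UTR library was above each siNT library (log2 change 0.35, SE 0.0696, edgeR's quasi-likelihood test with Benjamini-Hochberg adjustment, adjusted p = 0.000479). E2F3 thus rose with each siRNA, while E2F1 and E2F2, whose promoters also hold paired motif words, fell.

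The repressor members differed from each other with siMESH1-CDS. E2F4, the most abundant repressor in the siNT libraries and a main E2F of resting cells, was at 45.7, 37.0 and 41.4 CPM with siNT in experiment 1 and at 3.51, 2.13 and 8.43 CPM with siMESH1-CDS. The 3 knockdown libraries were lower but spread widely (log2 change -3.14, SE 0.527, edgeR's quasi-likelihood test with Benjamini-Hochberg adjustment, adjusted p = 0.00275). Without siMESH1-CDS replicate 3 the log2 change was -3.89. The E2F4 transcript has a GC content of 59.3%, the median log2 change of all genes in its GC class was -2.56, and with the GC offset the log2 change of E2F4 was -0.46 (edgeR's quasi-likelihood test with Benjamini-Hochberg adjustment, adjusted p = 0.0233). In experiment 2, E2F4 was at 56.9, 53.8 and 48.7 CPM with siNT and at 41.8, 47.9 and 45.1 CPM with siMESH1-3UTR. The lowest siNT library was only slightly above the highest knockdown library, and the log2 change was -0.24 (SE 0.0669, edgeR's quasi-likelihood test with Benjamini-Hochberg adjustment, adjusted p = 0.00573). This call was lost with the GC offset, at -0.10 and an adjusted p of 0.0632 from the same edgeR test, and in the fit of all 12 libraries, where the adjusted p was 0.757.

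E2F5, a repressor that binds with p130, was at 32.0, 31.9 and 32.8 CPM with siNT and at 50.7, 60.1 and 48.8 CPM with siMESH1-CDS, without overlap. Its log2 change was 0.72 (SE 0.120, edgeR's quasi-likelihood test with Benjamini-Hochberg adjustment, adjusted p = 0.00266). The E2F5 transcript has the lowest GC content of the members, 38.3%, and the median of its GC class was 1.10. With the GC offset its log2 change was -0.07 and was not called (edgeR, adjusted p = 0.508), so its direction with siMESH1-CDS depends on that setting. With siMESH1-3UTR it was at 15.7, 18.6 and 16.3 CPM against 15.3, 15 and 16.4 CPM with siNT, and the groups overlapped (log2 change 0.12, SE 0.0808, edgeR's quasi-likelihood test with Benjamini-Hochberg adjustment, adjusted p = 0.233).

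E2F6, which lacks the pocket protein binding region and works with Polycomb proteins, had overlapping groups with each siRNA. It was at 19.0, 17.6 and 20.4 CPM with siNT and 20.2, 17.4 and 18.6 CPM with siMESH1-CDS, and at 8.10, 10.0 and 8.73 CPM with siNT and 8.56, 8.41 and 8.25 CPM with siMESH1-3UTR. The log2 changes were -0.02 (SE 0.141) and -0.08 (SE 0.0959), with adjusted p of 0.887 and 0.491 in edgeR's quasi-likelihood test. With the GC offset E2F6 was called lower with siMESH1-CDS, at -0.36 (edgeR, adjusted p = 0.0365).

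Both atypical members fell with each siRNA. E2F7, which limits E2F1 levels and the S phase program, was at 291, 231 and 272 CPM with siNT in experiment 1 and at 133, 153 and 138 CPM with siMESH1-CDS. Each knockdown library was below each siNT library (log2 change -0.90, SE 0.117, edgeR's quasi-likelihood test with Benjamini-Hochberg adjustment, adjusted p = 0.00113), and the change was -1.39 with the GC offset. In experiment 2, E2F7 was much scarcer, at 21.0, 18.6 and 20.1 CPM with siNT and at 14.5, 15.9 and 16.0 CPM with siMESH1-3UTR. The groups did not overlap (log2 change -0.36, SE 0.0749, edgeR's quasi-likelihood test with Benjamini-Hochberg adjustment, adjusted p = 0.000615).

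E2F8, the partner of E2F7 in atypical repressor dimers, was at 18.5, 19.6 and 20.3 CPM with siNT and at 3.38, 4.01 and 3.80 CPM with siMESH1-CDS. The libraries of each group were tightly placed, and the groups were far apart (log2 change -2.38, SE 0.164, edgeR's quasi-likelihood test with Benjamini-Hochberg adjustment, adjusted p = 0.000267). In experiment 2 it was at 12, 12.4 and 11.2 CPM with siNT and at 5.27, 5.47 and 5.38 CPM with siMESH1-3UTR, leaving 45.3% (log2 change -1.14, SE 0.0907, edgeR's quasi-likelihood test with Benjamini-Hochberg adjustment, adjusted p = 1.86e-08). The GC content of the E2F8 transcript is 45.9%, and its log2 change with siMESH1-CDS was -2.54 with the GC offset. Among the 1293 genes in its GC class, 1.55% had a lower log2 change.

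The DP partners parted from each other. TFDP1, the main DP subunit, was at 225, 193 and 218 CPM with siNT and at 73.9, 73.3 and 75.3 CPM with siMESH1-CDS, with 35% left. The log2 change was -1.52 (SE 0.0904, edgeR's quasi-likelihood test with Benjamini-Hochberg adjustment, adjusted p = 0.000221), and -1.57 with the GC offset. With siMESH1-3UTR, TFDP1 was at 99.7, 103 and 98.3 CPM against 131, 137 and 124 CPM with siNT, and no knockdown library reached the siNT range (log2 change -0.38, SE 0.0504, edgeR's quasi-likelihood test with Benjamini-Hochberg adjustment, adjusted p = 8.1e-06).

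TFDP2, the other DP subunit, was at 71.2, 76.1 and 71.6 CPM with siNT and at 227, 247 and 205 CPM with siMESH1-CDS. It rose 3.1-fold without overlap (log2 change 1.63, SE 0.0999, edgeR's quasi-likelihood test with Benjamini-Hochberg adjustment, adjusted p = 0.00023), and 94.1% of the 1293 genes in its GC class had a lower log2 change. In experiment 2, TFDP2 was at 118, 121 and 124 CPM with siNT and at 117, 126 and 118 CPM with siMESH1-3UTR, and the groups overlapped (log2 change -0.01, SE 0.0477, edgeR's quasi-likelihood test with Benjamini-Hochberg adjustment, adjusted p = 0.937). The TFDP1 and TFDP2 transcripts have nearly equal GC contents, 46.6% and 46.7%. TFDP3, a further DP gene outside the 10, had 0 reads in all 12 libraries.

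**Figure D2:**
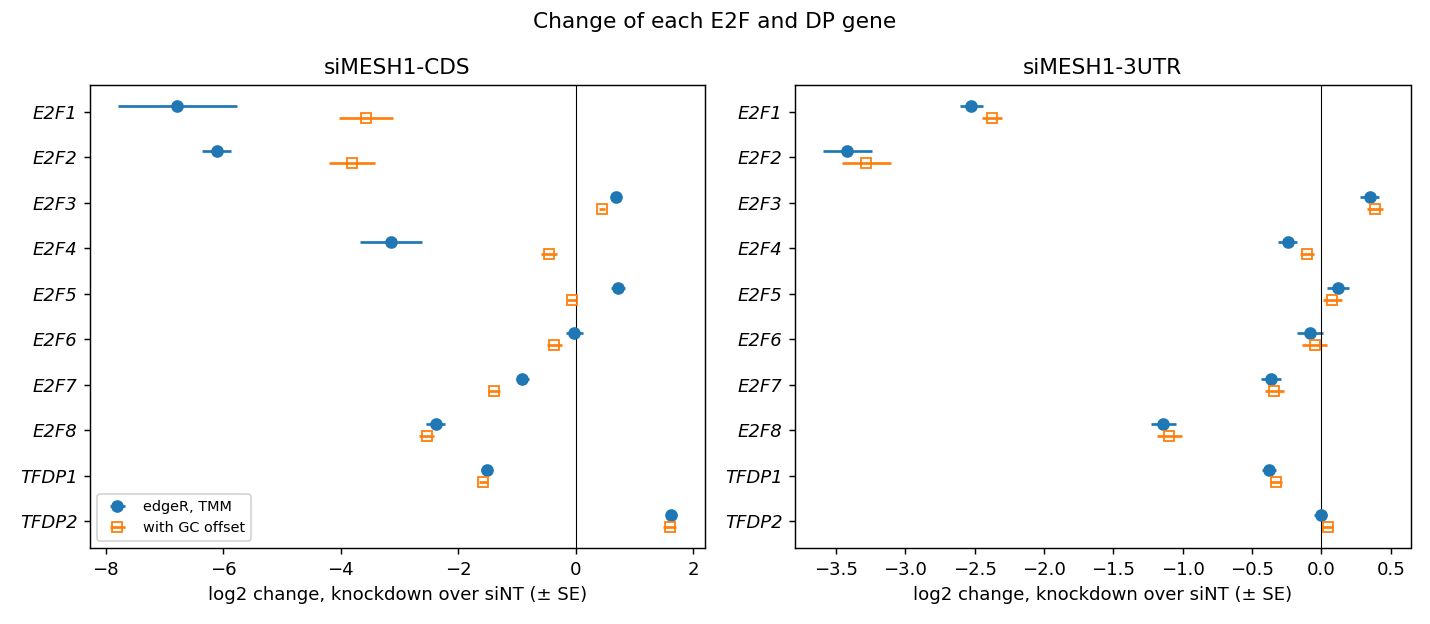
log2 change of each E2F and DP gene (knockdown over siNT, horizontal axis) with siMESH1-CDS on the left and siMESH1-3UTR on the right. Filled circles are the edgeR fit with TMM scaling, open squares the fit with a GC offset, and bars the SE of the fit. With siMESH1-CDS the GC offset brings E2F4 from -3.14 to -0.46 and E2F5 from 0.72 to -0.07, and E2F8, TFDP1 and TFDP2 shift by much less.

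**Figure D3:**
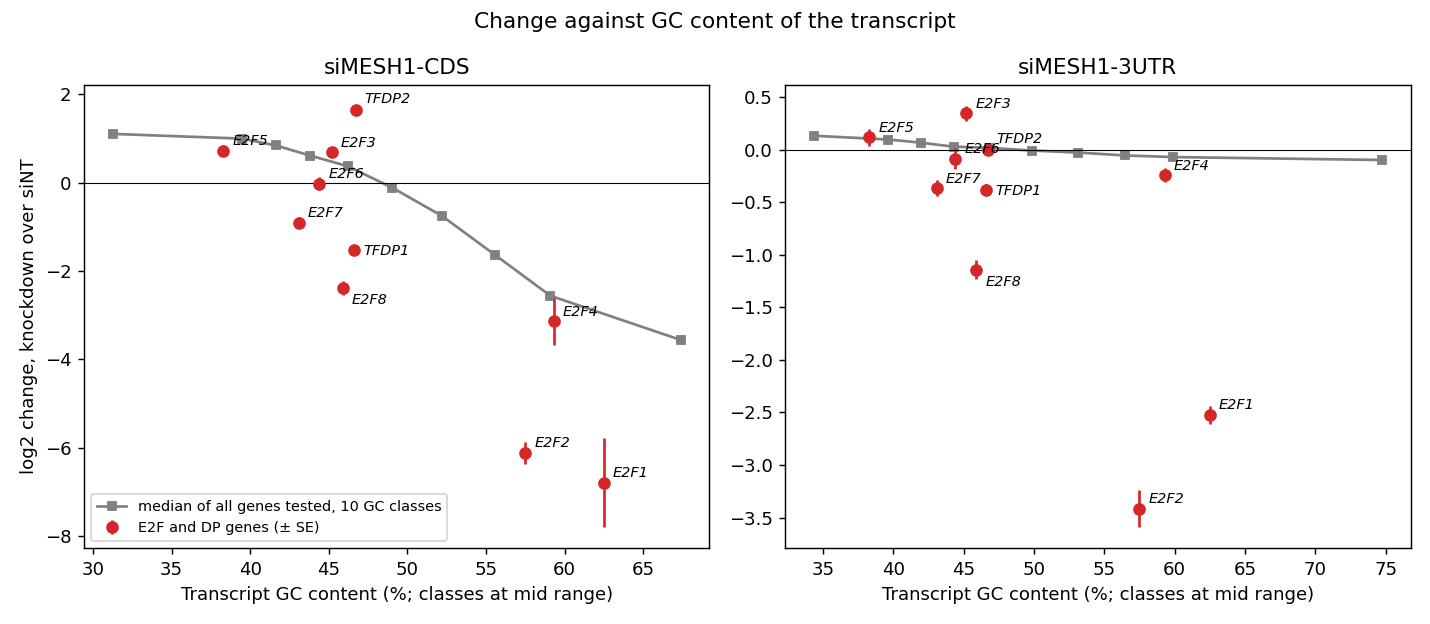
log2 change of each E2F and DP gene (red, ± SE) against the GC content of its transcript, with the median change of all genes tested in each of 10 GC classes (grey squares, at mid range). With siMESH1-CDS the medians run from 1.10 to -3.56, E2F4 and E2F5 lie near them, and E2F1, E2F2, E2F7, E2F8 and TFDP1 lie below. With siMESH1-3UTR the medians run from 0.134 to -0.0969.

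GC content moved with the results of experiment 1 and not evenly over the members. E2F1, E2F4 and E2F2 have GC contents of 62.5%, 59.3% and 57.5%, against 38.3% to 46.7% for the other 7. Among the genes of the same GC class, 4.41% had a lower log2 change than E2F1 with siMESH1-CDS, 1.86% a lower one than E2F2 and 36.4% a lower one than E2F4. With siMESH1-3UTR, where the medians over the classes stayed between -0.0969 and 0.134, 0.153% of the genes in its class were lower than E2F1, and E2F2 had the lowest value of the 1310 genes in its class.

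The change itself differed between the siRNAs for 8 of the 10 members, in a fit of all 12 libraries with a mean for each group, where 69.7% of the 14154 genes tested also differed. The siRNA and the experiment cannot be told apart in this contrast, since each siRNA was used in 1 experiment. The fit uses 1 estimate of spread per gene for both experiments, whose biological coefficients of variation were 0.299 and 0.049. It can thus understate the noise of experiment 1. For E2F1 the SE of the difference, 0.664, is below the SE of its siMESH1-CDS change alone, 1.01. Taking the change with siMESH1-3UTR minus that with siMESH1-CDS, the difference in log2 change was 4.42 for E2F1 (SE 0.664, edgeR's quasi-likelihood test with Benjamini-Hochberg adjustment, adjusted p = 0.000223), 3.05 for E2F4 and 2.83 for E2F2, the members that fell further with siMESH1-CDS. It was 1.39 for E2F8, 1.29 for TFDP1 and 0.69 for E2F7, which fell with each siRNA but less with siMESH1-3UTR. For TFDP2 it was -1.49 (SE 0.108, edgeR's quasi-likelihood test with Benjamini-Hochberg adjustment, adjusted p = 2.69e-06). E2F5 had a difference of -0.45 (edgeR, adjusted p = 0.017), which was 0.22 and not called with the GC offset. For E2F3 the difference was -0.19 (SE 0.117, edgeR, adjusted p = 0.172) and for E2F6 0.09 (SE 0.149, edgeR, adjusted p = 0.621), which was 0.37 and called with the GC offset (edgeR, adjusted p = 0.0442). With the GC offset, the differences of E2F2 and E2F4 were 0.50 and 0.30 and were not called (edgeR, adjusted p = 0.356 and 0.0569), and that of E2F1 was 1.18 (adjusted p = 0.0139). Without siMESH1-CDS replicate 3 the differences of E2F1 and E2F4 were 5.39 and 3.73, and without replicate 2 that of E2F1 was 3.80.

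Per kilobase of the longest annotated transcript and without a GC offset, TFDP1 had the highest and E2F2 the lowest mean level of the members in all 4 groups. In the siNT libraries of experiment 1, TFDP1 was at 80.1 ± 6.32 CPM per kb (mean ± SD, n = 3 here and below) and E2F7 at 46.2 ± 5.36. E2F3, E2F1 and E2F4 followed at 17.2 ± 0.47, 16.0 ± 1.38 and 15.8 ± 1.66, with overlapping spreads. Below these, TFDP2 was at 7.40 ± 0.278 and E2F5 at 6.40 ± 0.0963, E2F8 and E2F6 were level at 5.53 ± 0.258 and 5.52 ± 0.401, and E2F2 was at 1.31 ± 0.131. With siMESH1-CDS, TFDP1 and E2F3 stood side by side at 28.0 ± 0.403 and 27.8 ± 0.67, ahead of E2F7 at 24.7 ± 1.82 and TFDP2 at 22.9 ± 2.16, which overlapped. E2F5 was at 10.5 ± 1.20, E2F6 at 5.43 ± 0.406, E2F4 at 1.79 ± 1.27 and E2F8 at 1.06 ± 0.0899, while E2F1 and E2F2 came last at 0.146 ± 0.144 and 0.0183 ± 0.00171. The spreads of E2F4 and E2F8 overlapped, as did those of E2F1 and E2F2.

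In the siNT libraries of experiment 2 the order was TFDP1 at 49.3 ± 2.54 CPM per kb, E2F4 at 20.3 ± 1.58, TFDP2 at 12.3 ± 0.276, E2F1 at 11.2 ± 0.611 and E2F3 at 8.94 ± 0.774. E2F7, E2F8 and E2F5 were at 3.47 ± 0.208, 3.37 ± 0.177 and 3.08 ± 0.144, where the spreads of neighbours overlapped. E2F6 was at 2.59 ± 0.282 and E2F2 at 1.03 ± 0.0263. With siMESH1-3UTR, TFDP1 at 37.9 ± 0.95 and E2F4 at 17.2 ± 1.16 kept the first places. TFDP2 at 12.2 ± 0.46 and E2F3 at 11.4 ± 0.836 overlapped, and E2F5 was at 3.35 ± 0.309, E2F7 at 2.70 ± 0.146 and E2F6 at 2.44 ± 0.0453. E2F1 was at 1.96 ± 0.0883, E2F8 at 1.53 ± 0.0287 and E2F2 at 0.0958 ± 0.0212. The siNT libraries of the experiments thus differed in E2F7, which was second in experiment 1 and sixth in experiment 2, and the cause of that was not tested.

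The summed level of E2F1 to E2F8 fell from 114 ± 9.03 to 71.4 ± 2.68 CPM per kb with siMESH1-CDS and from 54.1 ± 1.98 to 40.6 ± 2.17 with siMESH1-3UTR (n = 3 each, exact permutation test, two-sided p = 0.1 each, the smallest that 3 against 3 libraries allow). No GC offset was applied to these levels. With siMESH1-CDS that offset took the log2 change of E2F1 from -6.78 to -3.57, E2F4 from -3.14 to -0.46 and E2F5 from 0.72 to -0.07. The part of the GC trend in the shares was not tested. The makeup of the E2F1 to E2F8 sum shifted differently with each siRNA. Activators made up 30.4% ± 0.873 with siNT and 39.1% ± 0.751 with siMESH1-CDS, but 39.3% ± 1.48 with siNT and 33.1% ± 1.02 with siMESH1-3UTR. Atypical members went from 45.3% ± 1.07 to 36.0% ± 1.47 with siMESH1-CDS and from 12.7% ± 0.0825 to 10.4% ± 0.369 with siMESH1-3UTR. Repressors were at 24.3% ± 0.301 and 24.9% ± 0.732 with siNT and siMESH1-CDS (n = 3 each, exact permutation p = 0.4), and at 48.1% ± 1.52 and 56.5% ± 0.838 with siNT and siMESH1-3UTR. The groups did not overlap for any class share except repressors with siMESH1-CDS, and the exact permutation p was 0.1 for each of the others (n = 3 each). Without scaling by length, the repressor share with siMESH1-CDS went from 18.3% to 21.6% and the groups did not overlap (n = 3 each, exact permutation p = 0.1), and the activator share with siMESH1-3UTR went from 41.0% to 39.5% and the groups overlapped.

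Inside the activators the makeup turned over with each siRNA. E2F1 went from 14% to 0.207% of the summed level with siMESH1-CDS and from 20.8% to 4.83% with siMESH1-3UTR. E2F3 went from 15.2% ± 0.826 to 38.9% ± 0.591 and from 16.6% ± 1.62 to 28.0% ± 1.17. E2F1 and E2F3 were thus of like size in the siNT libraries of experiment 1, and E2F3 held most of the activator share in the knockdown libraries. E2F4, the largest repressor share in experiment 2, was at 37.6% ± 1.79 with siNT and 42.3% ± 1.01 with siMESH1-3UTR, and in experiment 1 it went from 13.9% to 2.52%. The other repressors of experiment 1 rose in share, E2F5 from 5.64% to 14.8% and E2F6 from 4.85% to 7.62%. These shares carry no GC offset either. The atypical share of experiment 1 was mostly E2F7, at 40.4% ± 1.58 with siNT, against 6.42% ± 0.312 in experiment 2.

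**Figure D4:**
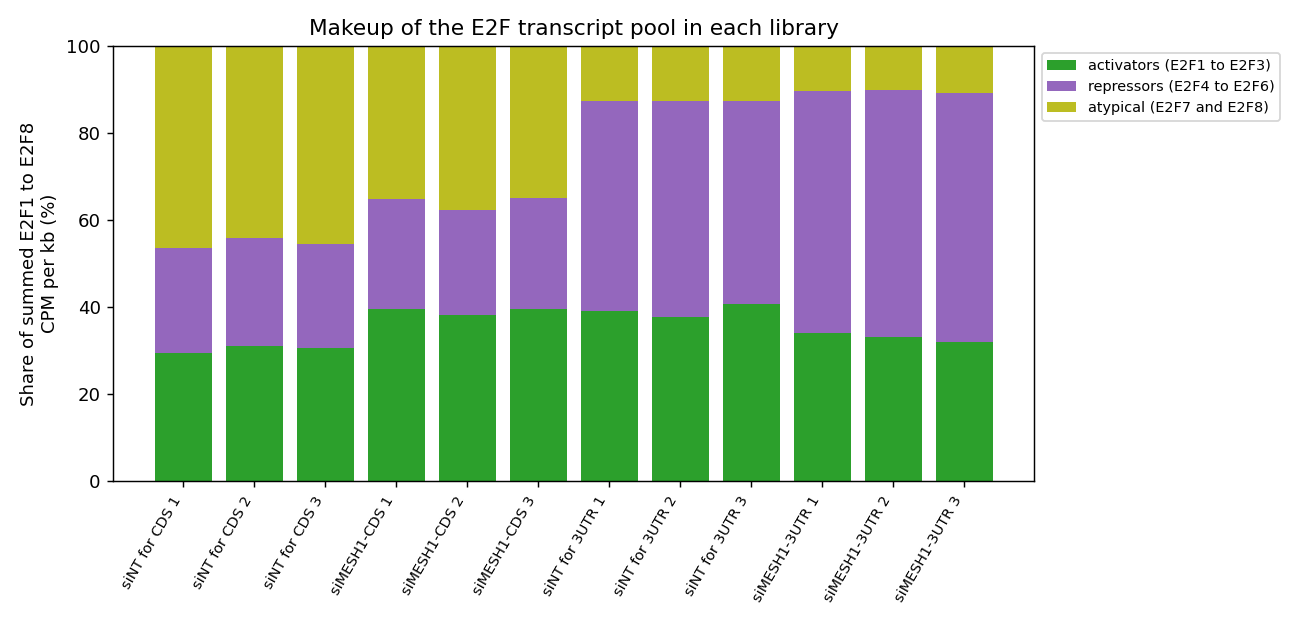
Share of the summed E2F1 to E2F8 level (CPM per kb without a GC offset, vertical axis in %) held by activators, repressors and atypical members, with 1 bar for each of the 12 libraries. The atypical share is 45.3% on average in the siNT libraries of experiment 1 and 12.7% in those of experiment 2, and it is lower in the knockdown libraries of each.

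The genes that act with the members or downstream of them were taken from 5 lists. G1/S targets of E2F, the genes for DNA synthesis and origin licensing, were lower for 19 of 21 tested genes with siMESH1-CDS and for 20 of 21 with siMESH1-3UTR (edgeR, adjusted p under 0.05). The shares called lower over all genes tested were 37.2% and 26.7%. The list medians were -3.08 and -1.45 on the log2 scale, against -0.0469 and 0.00531 for all genes tested. With the GC offset the count with siMESH1-CDS was again 19 and the median -2.23. There CCNE1 lost its call (-0.18) and CCNA2 gained one (-0.95), both named after their values were seen. RRM2, a subunit of ribonucleotide reductase, had log2 changes of -4.08 (SE 0.105) and -2.36 (SE 0.0791) with siMESH1-CDS and siMESH1-3UTR. The licensing factor CDC6 had -2.90 (SE 0.132) and -2.55 (SE 0.0958), and ORC1, a subunit of the origin recognition complex, -4.08 (SE 0.257) and -2.27 (SE 0.0878). SKP2, an F-box subunit of a ubiquitin ligase, singled out after its values were seen, was the 1 gene of the list called higher with siMESH1-CDS (0.57, edgeR adjusted p = 0.0141), a call that the GC offset removed, and with siMESH1-3UTR its value was 0.16 (edgeR adjusted p = 0.0661), which missed the threshold.

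The pocket proteins hold E2Fs in check, and the 3 genes had median log2 changes of -0.33 and -0.729 with siMESH1-CDS and siMESH1-3UTR. RBL1, which encodes p107, fell with each siRNA, with log2 changes of -0.75 (SE 0.167) and -0.73 (SE 0.0838). RB1, which encodes the retinoblastoma protein, went from 60.9 to 22.7 CPM with siMESH1-3UTR (log2 change -1.42, SE 0.0704, edgeR's quasi-likelihood test with Benjamini-Hochberg adjustment, adjusted p = 4.04e-11). With siMESH1-CDS it was at -0.33 and not called (edgeR, adjusted p = 0.169), and at -1.18 and called with the GC offset (edgeR, adjusted p = 5.12e-05). RBL2, which encodes p130, rose by 0.44 and 0.29 on the log2 scale, but with the GC offset its value with siMESH1-CDS was -0.05 and not called.

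Of the 7 MuvB, B-MYB and FOXM1 genes, which carry the program on from G1/S to mitosis, 4 were lower and 2 higher with siMESH1-CDS, and 6 were lower with siMESH1-3UTR, with list medians of -1.23 and -0.649 on the log2 scale. Of all genes tested, 37.2% were lower and 36.9% higher with siMESH1-CDS, and 26.7% were lower with siMESH1-3UTR. The 2 higher genes, LIN54 and RBBP4, named after their values were seen, were at 0.46 and 0.52, and with the GC offset at -0.31, called lower, and -0.10, not called (edgeR, adjusted p = 0.0182 and 0.194). MYBL2, which encodes B-MYB and is an E2F target, went from 114 to 2.01 CPM and from 68.6 to 13.5 CPM, with log2 changes of -5.83 (SE 0.873) and -2.35 (SE 0.0756). FOXM1, the mitotic transcription factor, had log2 changes of -3.36 and -1.54, and LIN9, a MuvB core subunit, -1.23 and -0.65. With the GC offset the changes of MYBL2 and FOXM1 with siMESH1-CDS were -3.05 and -1.74.

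Of the 11 Polycomb PRC1.6 partners of E2F6, 10 were tested, and RING1 had 0 reads in all libraries. With siMESH1-CDS 4 were lower and 4 higher, and with siMESH1-3UTR 4 were higher, with list medians of -0.275 and 0.119 on the log2 scale. Of all genes tested, 37.2% were lower and 36.9% higher with siMESH1-CDS, and 26.6% were higher with siMESH1-3UTR. The fit with the GC offset had 3 partners lower and 2 higher with siMESH1-CDS, and 1 lower and 6 higher with siMESH1-3UTR. RYBP, a core PRC1 subunit, rose with each siRNA, by 1.72 and 0.48 on the log2 scale. MAX, the dimer partner of MGA in this complex, was at -1.07 with siMESH1-CDS and 0.19 with siMESH1-3UTR, each called, and WDR5 was at -1.43, called, and -0.14, not called. With the GC offset the values of MAX and WDR5 with siMESH1-CDS were -0.28 and 0.46, neither of them called.

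Most apoptosis targets of E2F1 were higher where E2F1 was lower. With siMESH1-CDS 4 of 6 tested genes were higher and 1 lower, and with siMESH1-3UTR 6 of 7 were higher and 1 lower, with list medians of 0.583 and 0.352 on the log2 scale. The shares called higher over all genes tested were 36.9% and 26.6%. The fit with the GC offset had 3 higher and 1 lower with siMESH1-CDS, and 5 higher and 1 lower with siMESH1-3UTR. BCL2L11, which encodes the BH3-only protein BIM, had log2 changes of 0.91 (SE 0.149) and 0.50 (SE 0.0609). The genes called lower, named after their values were seen, were PMAIP1, which encodes NOXA, with siMESH1-CDS (-1.16) and TP73, a p53 relative and direct E2F1 target, with siMESH1-3UTR (-2.45, edgeR adjusted p = 1.41e-05). PMAIP1 was called higher with siMESH1-3UTR (0.23, edgeR adjusted p = 0.0291), a call that the GC offset removed. TP73 was scarce, going from 1.01 to 0.18 CPM with siMESH1-3UTR, and was not tested with siMESH1-CDS.

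Among the genes whose pattern was most like that of E2F1 over the 12 libraries were CNPPD1, C17orf53, LMAN2 and CHTF8, with Pearson correlations from 0.9963 to 0.9981 among 11548 genes, taken on log2 CPM minus the siNT mean of each experiment. These libraries share the group differences and the GC trend, and these 4 transcripts have a GC content of 55.3% or more, so the correlations are a description only. With siMESH1-CDS the change of CNPPD1 was -1.67 on the log2 scale and 0.97 with the GC offset. Of the members, E2F4, TFDP1, E2F8, E2F2 and E2F7 correlated with E2F1 at 0.955, 0.943, 0.921, 0.908 and 0.883. These values stood at percentiles 90.9, 85.4, 75.9, 72.2 and 68.2 of all genes compared. E2F5, TFDP2 and E2F3 ran opposite to E2F1, at -0.961, -0.913 and -0.91, which are percentiles 9.82, 22.2 and 22.9. E2F6 was at 0.202, percentile 51.7. Strong correlations of either sign were thus common over all genes.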

How the data were processed

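RNA-seq libraries of RCC4 cells were made from poly(A) RNA with a stranded kit, per the labels. The authors aligned reads to hg19 and deposited raw HTSeq counts for each gene, as whole numbers, and the processing notes of the submitters name HISAT2. Rows that name no gene held 38.94% to 49.26% of the counts and were left out. The deposited DESeq2 tables hold the comparisons made by the authors (mean normalized counts, fold changes and p-values) and were not used. The members and gene lists were chosen with earlier results of these data known.

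The counts were fitted by edgeR 4.0.16 under R 4.3.3 (filterByExpr, TMM scaling, quasi-likelihood F test), with Benjamini-Hochberg adjustment over all genes tested and a threshold of 0.05, within each experiment, and in a fit of 4 groups for the difference. The GC offset of each library came from smoothing log2 CPM over transcript GC content (lowess, span 0.3, prior count 1). The alternatives were DESeq2 1.42.0, scaling by library size, no filter, the GC offset, a replicate block, a lane term, a fit of all 12 libraries, shares without length scaling, and leaving out each library. Shares were tested by exact permutation. The edgeR steps were run on simulated counts in which 200 genes had a 2-fold change. At a coefficient of variation of 0.05, all 200 were recovered for each experiment, with 9 and 7 false calls. At 0.3, near the 0.299 of experiment 1, only 13 and 16 were recovered for experiments 1 and 2. The simulation gave every gene the same coefficient of variation. It therefore does not give the recovery in experiment 1 itself, where 9926 of 13395 genes were called. Changes not called with siMESH1-CDS may still have been missed.

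GC content, length and 3'UTRs came from GENCODE on GRCh38, matched by symbol, because no hg19 annotation was used here (21257 of 23710 matched by name, 1096 by an older symbol). Length and GC content are those of the longest annotated transcript of each gene, and the longest annotated 3'UTR was searched. Which isoforms the cells express was not tested, so levels per kilobase, class shares and GC values hold for that choice. Besides the members, the text names HDDC3, the 3 genes per list with the smallest p for the average of both changes, and the 5 genes most correlated with E2F1 among those with a mean of 1 CPM or more in each experiment. Some single-gene results are left out here.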

Additional observations from a re-analysis of the deposited data

Results flagged for a closer look

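The change differed between the siRNAs for 8 members, by edgeR's quasi-likelihood test of the difference with Benjamini-Hochberg adjustment, in log2 units as siMESH1-3UTR minus siMESH1-CDS. The differences were 4.42 for E2F1, 2.83 for E2F2, 3.05 for E2F4, -0.45 for E2F5, 0.69 for E2F7, 1.39 for E2F8, 1.29 for TFDP1 and -1.49 for TFDP2. Each siRNA was used in 1 experiment, so the siRNA and the experiment cannot be told apart, and 69.7% of all genes tested differed as well. The fit uses 1 estimate of spread per gene for both experiments and can understate the noise of experiment 1.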

How the results depend on the processing

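Over all alternatives, 6 or 7 members were lower and 2 or 3 higher with siMESH1-CDS, and 5 or 6 lower and 1 higher with siMESH1-3UTR. Leaving out single libraries gave 6 lower and 3 higher, and 6 lower and 1 higher, and 7 to 8 members that differed between the siRNAs, with E2F5 lost (-0.39) without siMESH1-3UTR replicate 1. The replicate block left the 4 counts at 6, 3, 6 and 1 and gave 7 differing members, with E2F5 at -0.45 and an edgeR adjusted p of 0.0504. Same-numbered libraries, each minus the mean of its group of 3, correlated at -0.0475, 0.224 and 0.128 in experiment 1. In experiment 2 they correlated at -0.063, 0.0415 and -0.0755. With so few libraries per group, these values cannot settle whether the numbers pair the samples. Libraries of lanes 4 and 6 with a lane term gave 6 lower and 3 higher with siMESH1-CDS.

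The GC offset gave 6 differing members. It turned E2F5 with siMESH1-CDS to -0.0674, TFDP2 with siMESH1-3UTR to 0.0499, and the differences of E2F3 and E2F5 to 0.00274 and 0.22. With siMESH1-CDS it gave 2 pocket protein genes lower and 0 higher, 0 MuvB, B-MYB and FOXM1 genes higher, 2 PRC1.6 partners higher and 0 G1/S targets higher. With siMESH1-3UTR it gave 1 PRC1.6 partner lower and 1 G1/S target higher. Changes close to 0 also turned without single libraries, with ranges of -0.0782 to 0.0413 for E2F6 with siMESH1-CDS, -0.154 to 0.00258 for E2F6 and -0.0363 to 0.0136 for TFDP2 with siMESH1-3UTR, and TFDP2 was at 0.00307 without the filter. Scaling by library size moved the median of all genes with siMESH1-CDS to -0.31 and changed no member call. The fit of 4 groups called 2582 genes with siMESH1-3UTR against 7235.

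Without length scaling, class shares with siMESH1-CDS moved by 11.9 (activators), 3.29 (repressors) and -15.2 (atypical) percentage points, and with siMESH1-3UTR by -1.46, 4.73 and -3.27. Leaving out single libraries gave 8.31 to 9.22, 0.262 to 0.959 and -10.2 to -8.82, and -6.89 to -5.41, 7.62 to 9.13 and -2.44 to -2.07. The cause of these shifts was not tested. E2F1 and E2F2 with siMESH1-CDS rest on 25 reads or fewer per library, which limits their folds.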
